A study of Homo sapiens with 6 samples.

Results

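The genes described here encode the building blocks of the actin and tubulin cytoskeleton, measured by RNA sequencing in DU145 cells, an established human prostate cancer line. They were the protein-coding genes of the deposited expression table whose symbols belong to the tubulins and gamma-tubulin complex (TUBA, TUBB, TUBG and TUBGCP), the myosins (MYO, MYH and MYL), tropomyosins and tropomodulins (TPM and TMOD), actin, Arp2/3 and actin-related proteins (ACTB, ACTR and ARPC), alpha-actinins (ACTN), filamins (FLN), spectrins (SPT), diaphanous formins (DIAPH) or the microtubule-associated proteins MAP1A, MAP1B, MAP1S and MAP4. The rule found 64 genes among the 10542 genes of the table. In GENCODE release 29, 130 protein-coding genes carry such a symbol, and the other 66 were not analysed here. Every gene of the table carried a deposited adjusted p below 0.05 for the same comparison, so the 64 genes had already been selected for a difference between these libraries. That every one of them differed is therefore no finding, and only direction, size and level are described.

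DU145 cells transduced with a TFEB overexpression lentivirus (DU145-TFEB, 3 libraries) were compared with DU145 cells transduced with a vector lentivirus (DU145-vector, 3 libraries). Both were stable lines selected with puromycin after transduction, and the polyA RNA of each library was sequenced. The sources do not say whether the 3 libraries of a group came from separate transductions or cultures, so p-values measure the spread between these libraries, which may be technical. Between 13999961 and 16511477 reads per library fell on the listed genes. The normalized counts used throughout are reads divided by 1 size factor per library, which ran from 0.95 to 1.10. The TFEB gene itself read 127, 124 and 125 normalized counts in DU145-vector and 6325, 6301 and 6036 in DU145-TFEB, as the labels state.

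Actin filaments are polymers of actin that are nucleated by the Arp2/3 complex or by formins, decorated by tropomyosin, capped at their pointed ends by tropomodulin and cross-linked by alpha-actinin and filamin. Myosins are the motors that walk on actin or pull filaments together, and spectrin forms the meshwork under the plasma membrane. Microtubules are polymers of alpha- and beta-tubulin that grow from gamma-tubulin ring complexes. TFEB is a transcription factor best known for driving lysosomal genes from promoters that hold the sequence CACGTG, and lysosomes travel along both filament systems.

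The genes lowest in DU145-TFEB relative to DU145-vector were the tropomodulins TMOD2 and TMOD3, the microtubule-associated protein MAP1B and the unconventional myosins MYO5A and MYO9A, each with a log2 fold change below -2. Of the 10 genes most abundant per kilobase, 8 were higher on the authors' scaling (ACTB, TUBB, TUBB4B, MYL6, MYL9, ACTN4, FLNA and MYH9), by between 0.20 and 0.53 on the log2 scale, and 2 were lower, the myosin light chains MYL12B (-0.70) and MYL12A (-0.37). Of the 20 most abundant, 12 were higher and 8 lower. With the trend against GC content, described below, removed, all of the first 10 lay below 0, against 70.6% of listed genes. Of these 10, all but MYL6 (-0.068, limma adjusted p = 0.273) passed the test as lower, against 53.4% of listed genes. Of the 64 genes, 35 were higher and 29 lower at a limma adjusted p below 0.05, while 47.6% of all 10542 listed genes were higher and 52.4% lower. With a change above 1.5 on the log2 scale also required, 8 genes were lower (12.5%, against 16.5% of all listed genes) and 1 was higher (1.56%, against 2.54%). The shares of the 64 genes past both thresholds were therefore close to, and below, those of the table. The libraries of both groups did not overlap for 63 of the 64 genes, as for 99.3% of all listed genes, and the exception was MYO15A.

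**Figure D1:**
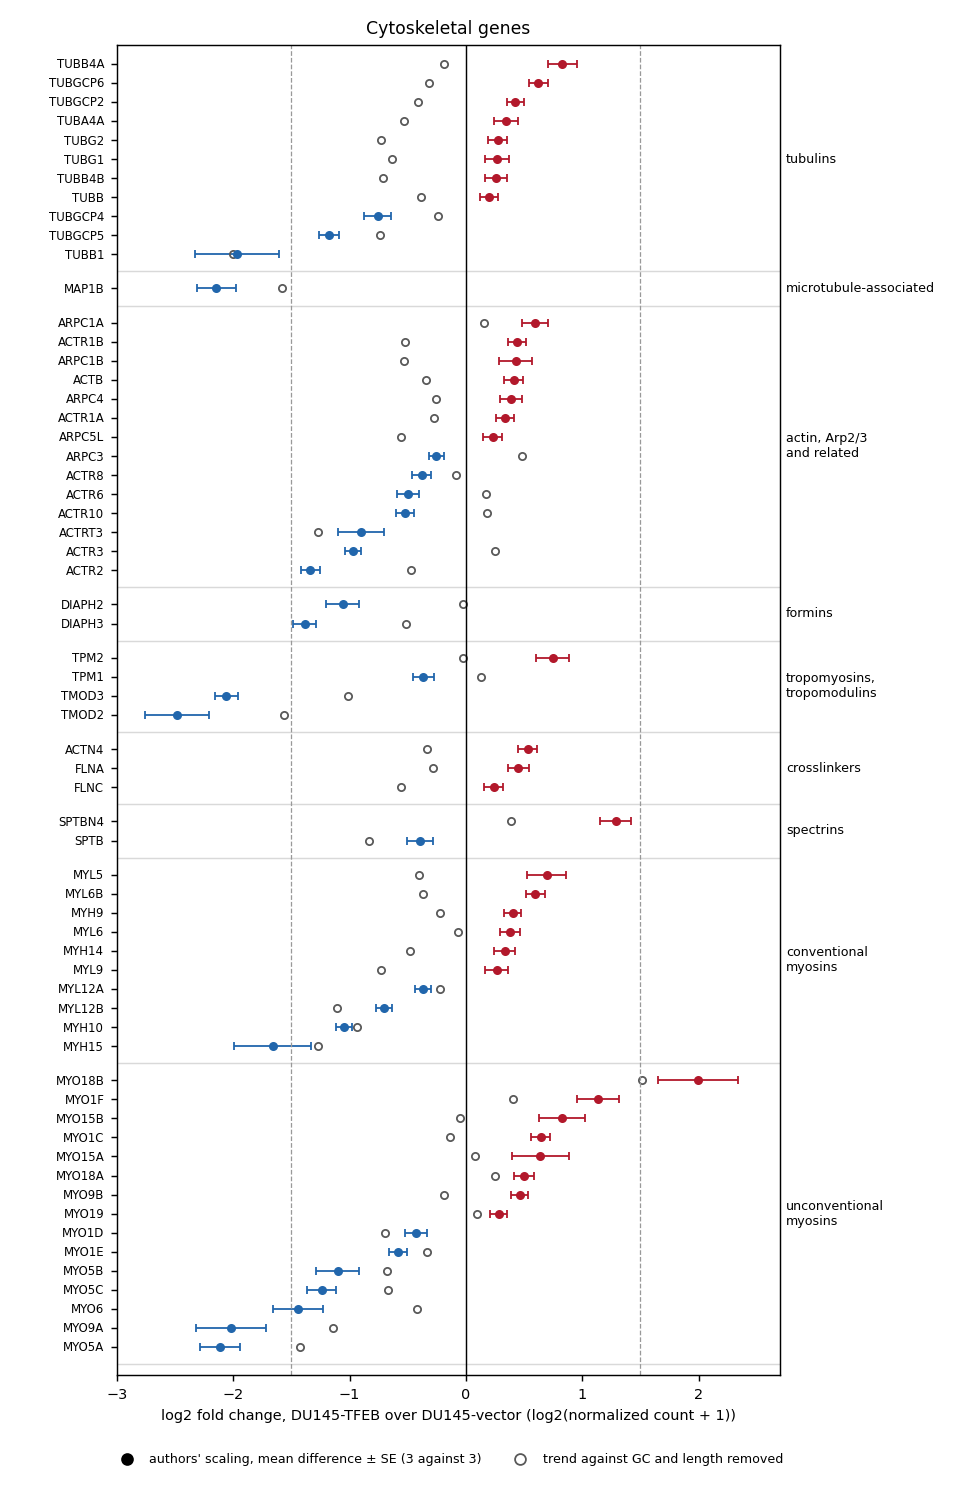
Each row is 1 of 62 of the 64 genes, grouped by role, and the x axis is the log2 fold change of DU145-TFEB over DU145-vector on the log2(normalized count + 1) scale. Filled points with bars are the difference of the means of 3 libraries each ± SE (red higher, blue lower), open circles are the same value after the trend against GC content and gene length was removed, and dashed lines mark 1.5 in each direction. Most filled red points sit to the right of open circles that lie below 0, whereas MAP1B, TMOD2, TMOD3, TUBB1, MYH15, MYO5A and MYO9A stay below -1 in both.

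Direction followed base composition. Among the 64 genes, 27 of the 28 whose longest transcript had a GC content below 50% were lower in DU145-TFEB, and 34 of the 36 at 50% or above were higher. The exceptions were ARPC1A, which was higher just under 50%, and MYO1D and SPTB, which were lower at 52.1% and 59.2%. The table as a whole behaved alike, with 13.96% of genes higher below 50% GC and 91.5% at 50% or above. Over the 64 genes the Spearman correlation of the log2 fold change with GC content was 0.81, and over the 10537 listed genes with a GC value it was 0.74. These points share the same 6 libraries, and genes are not independent replicates.

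A smooth trend against GC content and gene length was taken out of each library, keeping the library's mean. The median log2 fold change of the 64 genes then moved from 0.25 to -0.38, while that of all listed genes moved only from -0.36 to -0.30. The median of the 64 genes thus lay 0.60 above that of the table before the removal and 0.08 below it after. Altogether 33 of the 64 genes changed sign, 28 of them from higher to lower, and for 25 of the 33 the new direction passed an adjusted p of 0.05. Among the 10537 listed genes with a GC value 3545 changed sign, and for 2130 of these the new direction passed. With the trend removed, 45 genes were lower and 5 higher at a limma adjusted p below 0.05, against 53.4% and 15.6% of all listed genes. At both thresholds 3 genes were then lower (TMOD2, MAP1B and TUBB1) and 1 higher (MYO18B), against 4.54% and 1.35% of all listed genes. Values below are on the authors' scaling unless given as after removal of this trend. After removal 70.6% of listed genes lay below 0, so a value after removal stands beside the median of -0.30 for all listed genes. Whether the trend comes from the cells or from the libraries cannot be told apart in these data.

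**Figure D2:**
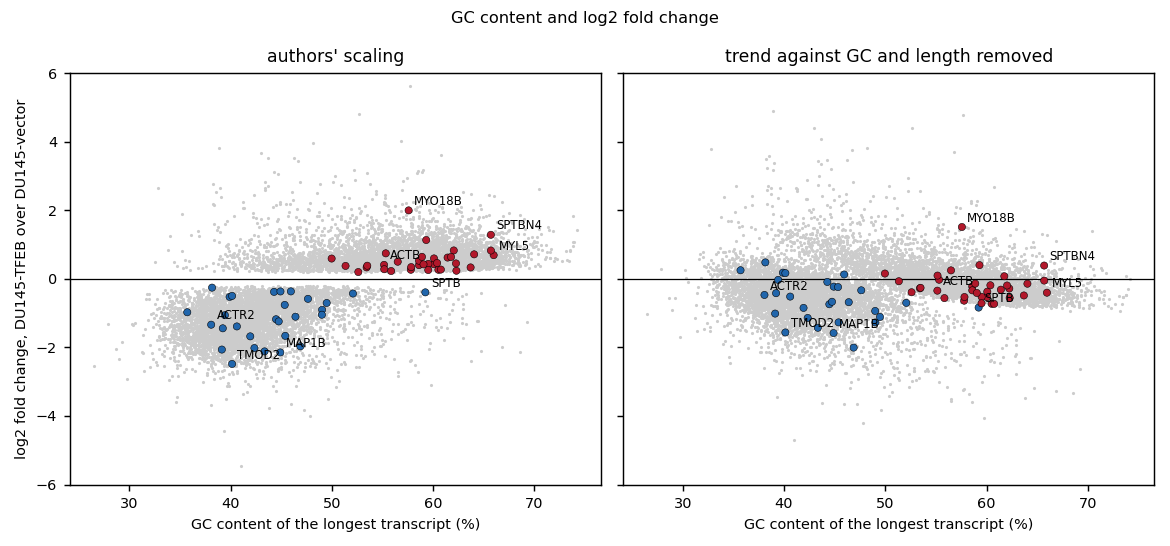
The x axis is the GC content of the longest transcript in percent and the y axis the log2 fold change of DU145-TFEB over DU145-vector, on the authors' scaling (left) and with the trend against GC content and length removed (right). Grey dots are listed genes, and large points are the 64 cytoskeletal genes, red where higher and blue where lower on the authors' scaling. On the left the red and blue points separate near 50% GC. On the right most of both colours lie below 0, as do 70.6% of listed genes.

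The libraries within a group were not equally alike. DU145-TFEB replicate 2 held the lowest of the 3 DU145-TFEB values for 19 of the 29 lower genes and the highest for 26 of the 35 higher genes. DU145-vector replicate 2 lay at the far side of its own group, with the highest DU145-vector value for 18 of the 29 lower genes and the lowest for 22 of the 35 higher genes. Leaving out DU145-TFEB replicate 2 lowered the median of the 64 genes from 0.25 to 0.15 and took MYH15 out of the genes past both thresholds. MYO15A, the gene whose groups overlapped, read 70.6, 64.4 and 89 normalized counts in DU145-vector and 137, 79.2 and 143 in DU145-TFEB, with replicate 2 below 1 DU145-vector library.

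By level, the 64 genes spanned a wide range. Per kilobase of gene length, ACTB, cytoplasmic beta-actin, was the most abundant, with 24787 ± 1212 normalized counts per kb (SD, n = 3) in DU145-vector, followed by the beta-tubulin TUBB with 9952 ± 515. Next came TUBB4B with 5872 ± 144 and the myosin regulatory light chain MYL12B with 5706 ± 178, a pair that differed by less than the sum of their SDs. The light chains MYL6 with 3859.9 ± 143 and MYL9 with 3765 ± 222 came after them. ACTN4, FLNA and MYH9 followed at 3546 ± 329.9, 3095 ± 189 and 2788 ± 182 normalized counts per kb. From MYL6 to MYH9 no 2 neighbours in this order differed by more than the sum of their SDs. At the other end stood the beta-tubulin TUBB1 and the unconventional myosin MYO18B, with 3.10 ± 0.536 and 0.643 ± 0.254 normalized counts per kb. Of the 10 most abundant genes 8 were higher in DU145-TFEB on the authors' scaling, the exceptions being MYL12B and MYL12A. Of the 20 most abundant, 12 were higher and 8 lower. After trend removal all of the first 10 lay below 0.

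Summed over the 64 genes, normalized counts made up 2.63%, 2.57% and 2.73% of the listed total in the DU145-vector libraries and 2.81%, 3.11% and 2.82% in the DU145-TFEB libraries. These shares did not overlap between the groups, and DU145-TFEB replicate 2 was the highest. The sum was dominated by a few genes, since ACTB alone gave between 22.5% and 27.2% of it in each library. In cell lysates, a smaller number of cells with a transcript and less of it per cell cannot be told apart, here and in all values below.

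Among the tubulins and gamma-tubulin complex proteins 8 of 11 were higher and 3 lower in DU145-TFEB, with a median log2 fold change of 0.27 (-0.53 after trend removal). TUBB, the most abundant tubulin, read 35233, 31788 and 33267 normalized counts in DU145-vector and 36518, 41119 and 37586 in DU145-TFEB. The groups did not overlap, but the difference was small, with a log2 fold change of 0.20 ± 0.07 (SE, limma adjusted p = 0.0252), turning to -0.39 (limma adjusted p = 9.60e-05) after trend removal and to -0.36 under quantile normalization, which gives every library the same distribution of values. TUBB4B behaved alike, at 12726, 12127 and 12332 in DU145-vector and 13998, 17467 and 13323 in DU145-TFEB, with 0.26 ± 0.10 (SE, limma adjusted p = 0.0272), -0.71 (limma adjusted p = 2.15e-06) after trend removal and -0.031 under quantile normalization. Its highest value came from DU145-TFEB replicate 2, and without that library neither TUBB nor TUBB4B passed the test (limma adjusted p = 0.062 and 0.061). Tubulin genes have near-identical copies, so reads may have been split or lost between TUBB, TUBB4A and TUBB4B.

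TUBB4A, the beta-tubulin best known from brain, rose most of the tubulins on the authors' scaling, from 364, 299 and 376 normalized counts in DU145-vector to 598, 689.7 and 559.7 in DU145-TFEB. Its log2 fold change was 0.83 ± 0.12 (SE, limma adjusted p = 0.000181), and -0.19 (limma adjusted p = 0.059) after trend removal, which reversed the sign without passing the test. The alpha-tubulin TUBA4A was at 0.34 ± 0.10 (SE, limma adjusted p = 0.00951) and reversed to -0.53 (limma adjusted p = 3.94e-05) after trend removal. At the opposite end TUBB1, the beta-tubulin of platelets and megakaryocytes, rested on 13, 11 and 9 reads in DU145-vector and 2 reads in each DU145-TFEB library. The ratio of these reads was 0.18 (95% exact interval 0.063 to 0.44, counting error only). Its log2 fold change was -1.97 ± 0.36 (SE, limma adjusted p = 0.000626) and -2.01 (limma adjusted p = 0.00094) after trend removal, and the exons of TUBB1 overlap those of ATP5F1E on the other strand.

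The gamma-tubulin ring complex, which nucleates microtubules, split on the authors' scaling. Its core gamma-tubulins TUBG1 and TUBG2 were both higher, at 0.27 and 0.27 on the log2 scale, and both turned lower after trend removal (-0.64 and -0.73). Of the complex proteins, TUBGCP2 (0.42) and TUBGCP6 (0.62) were higher while TUBGCP4 (-0.76) and TUBGCP5 (-1.18) were lower. TUBGCP5 fell from 1134, 1239.6 and 1128 normalized counts in DU145-vector to 518, 499.6 and 529 in DU145-TFEB, and its groups were far apart. With the trend removed the 4 complex proteins were all lower (limma adjusted p below 0.05), between -0.74 and -0.24, as were both gamma-tubulins.

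MAP1B, which binds and stabilizes microtubules and is best known from growing neurons, was the only listed gene of its group. It read 10108, 11366 and 10077 normalized counts in DU145-vector and 2416, 1784 and 3092 in DU145-TFEB. All DU145-TFEB values lay far below the DU145-vector values, and replicate 2 was the lowest. The log2 fold change was -2.15 ± 0.17 (SE, limma adjusted p = 5.43e-06), and -1.58 (limma adjusted p = 1.96e-07) after trend removal, so the gene passed both thresholds either way.

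Both tropomodulins were lower by more than 2 on the log2 scale, while the tropomyosins TPM1 and TPM2 changed less and in opposite directions on the authors' scaling. TMOD3, the widely expressed tropomodulin, read 5478, 6014 and 5177 normalized counts in DU145-vector and 1342, 1169 and 1491 in DU145-TFEB, a log2 fold change of -2.06 ± 0.10 (SE, limma adjusted p = 2.30e-06). TMOD2, the neuronal tropomodulin, fell from 384, 415 and 387 to 71.6, 43.7 and 109 normalized counts, with -2.48 ± 0.27 (SE, limma adjusted p = 2.86e-05). The DU145-TFEB libraries spread more for TMOD2 than for TMOD3, with replicate 2 lowest and replicate 3 highest, but stayed far from DU145-vector. With the trend removed TMOD3 stood at -1.01 (limma adjusted p = 1.93e-07) and TMOD2 at -1.56 (limma adjusted p = 1.73e-05). TPM1, the most abundant of the 4 genes, read 8884, 10420.1 and 9378 normalized counts in DU145-vector and 6989, 8297 and 7006 in DU145-TFEB, with -0.37 ± 0.09 (SE, limma adjusted p = 0.0034), and its sign turned after trend removal (0.13, limma adjusted p = 0.34). TPM2 was higher at 0.75 ± 0.14 (SE, limma adjusted p = 0.000713), and at -0.025 (limma adjusted p = 0.898) after trend removal.

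**Figure D3:**
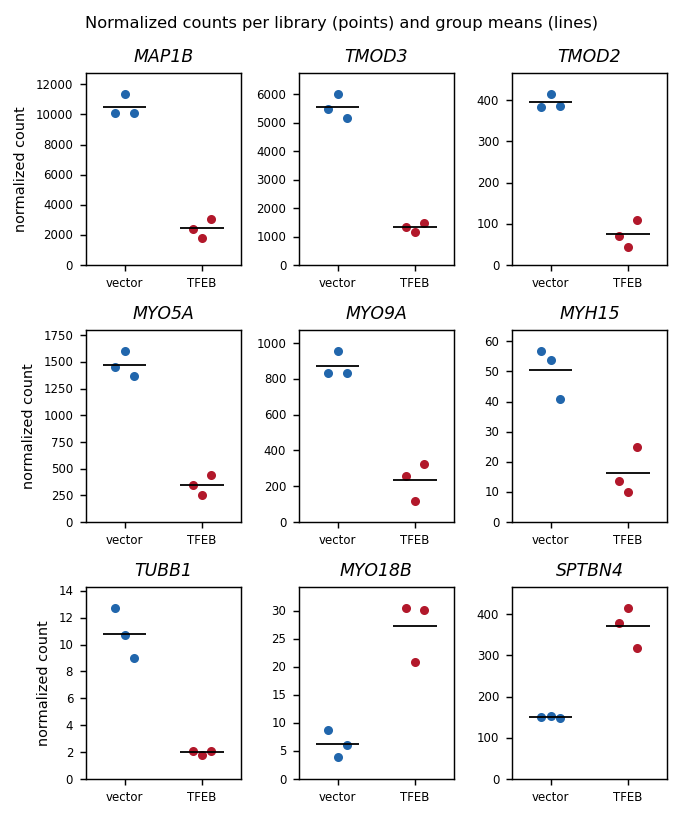
Normalized counts (y axis, linear, from 0) of 7 genes that were lower and the 1 gene, MYO18B, that was higher past both thresholds, with SPTBN4 added as the spectrin with the largest change. Each point is 1 library (blue DU145-vector, red DU145-TFEB, replicates 1 to 3 from left to right) and each line is the mean of 3. In every panel the points of both groups lie apart, and in MAP1B, TMOD2, TMOD3, MYO5A, MYO9A and MYH15 the middle red point, DU145-TFEB replicate 2, is the lowest.

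In the group of actin, the Arp2/3 complex and actin-related proteins, 7 of 14 genes were higher and 7 lower, with a median of -0.01 (-0.27 after trend removal). ACTB read 88546, 82457 and 90678 normalized counts in DU145-vector and 109886, 127098 and 110986 in DU145-TFEB. The groups did not overlap and DU145-TFEB replicate 2 was the highest. Its log2 fold change was 0.41 ± 0.08 (SE, limma adjusted p = 0.00124). It turned to -0.34 (limma adjusted p = 0.000348) after trend removal, where the median of all listed genes was -0.30. Under quantile normalization it stood at -0.25, so no direction held across scalings for this commonly used reference gene. Actin genes too have near-identical copies.

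The subunits of the Arp2/3 complex, which nucleates branched actin, split into 4 higher and 3 lower. Both actin-related subunits at the heart of the complex were lower. ACTR2 read 8713, 9123 and 8375 normalized counts in DU145-vector and 3483, 3107 and 3818 in DU145-TFEB, with -1.34 ± 0.08 (SE, limma adjusted p = 3.07e-06), the larger decrease of the pair. ACTR3 read 4759.8, 5176 and 4656 in DU145-vector and 2401, 2469.6 and 2551 in DU145-TFEB, with -0.97 ± 0.07 (SE, limma adjusted p = 4.02e-06). For both genes the gap between the groups was many times the spread inside each group. ARPC3 was slightly lower (-0.26), whereas ARPC1A (0.59), ARPC1B (0.43), ARPC4 (0.38) and ARPC5L (0.23) were higher. ARPC1A, which rose most, read 538, 485 and 420.0 normalized counts in DU145-vector and 764, 732 and 675 in DU145-TFEB. With the trend removed ACTR2 was still lower at -0.47 (limma adjusted p = 1.39e-05), but ACTR3 turned to 0.25 (limma adjusted p = 0.0949) and ARPC3 to 0.48 (limma adjusted p = 5.08e-05), while ARPC1B, ARPC4 and ARPC5L turned lower, between -0.56 and -0.26. ARPC1A kept its sign without passing the test (0.16, limma adjusted p = 0.185).

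**Figure D4:**
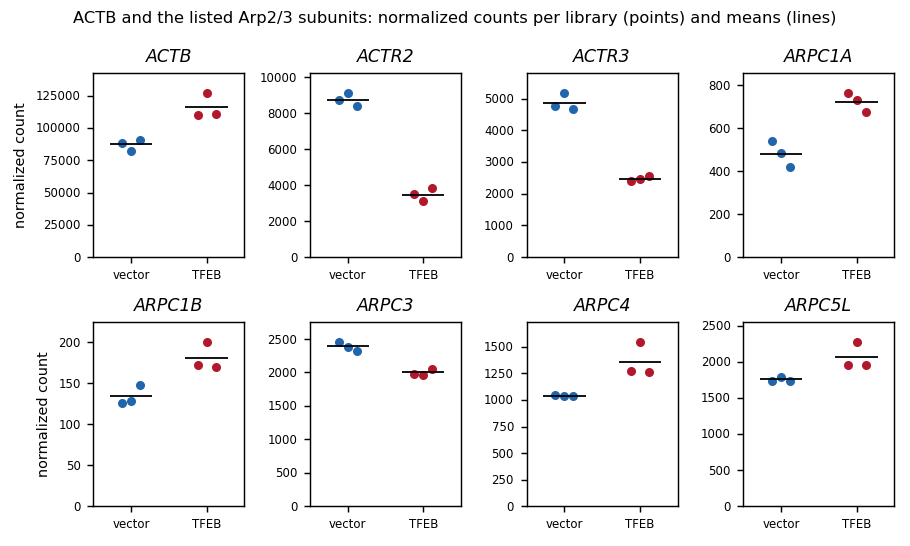
Normalized counts (y axis, linear, from 0) of ACTB and of the 7 listed Arp2/3 subunits in each library, with a line at the mean of 3 libraries (blue DU145-vector, red DU145-TFEB). ACTR2, ACTR3 and ARPC3 have all red points below the blue ones, and in the other 5 panels the order is the reverse.

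Of the actin-related subunits of dynactin, the activator of the dynein motor, ACTR1A (0.33) and ACTR1B (0.44) were higher and ACTR10 (-0.53) lower, and all 3 changed sign after trend removal (-0.28, -0.52 and 0.18). The nuclear actin-related proteins ACTR6 and ACTR8, parts of chromatin remodelling complexes, were lower at -0.50 and -0.38. Neither passed the test after trend removal (0.17 and -0.090), and quantile normalization put ACTR8 at 0.032. ACTRT3, best known from sperm, was low in level, at 99.0, 110.2 and 74 normalized counts in DU145-vector and 46.3, 54.6 and 47.8 in DU145-TFEB, and fell by either route (-0.90, and -1.27 after trend removal).

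Formins elongate unbranched actin filaments, and both listed diaphanous formins were lower. DIAPH3 read 1274, 1398 and 1241 normalized counts in DU145-vector and 477, 460.4 and 561 in DU145-TFEB, with -1.39 ± 0.10 (SE, limma adjusted p = 4.28e-06). DIAPH2 read 281, 303 and 302 in DU145-vector and 167, 124 and 136 in DU145-TFEB, with -1.06 ± 0.14 (SE, limma adjusted p = 8.69e-05). Both lie in the GC-poor part of the table. With the trend removed DIAPH3 remained lower at -0.52 (limma adjusted p = 5.75e-05), but DIAPH2 stood at -0.029 (limma adjusted p = 0.858).

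All 3 filament crosslinkers were higher on the authors' scaling and lower after trend removal. ACTN4, the non-muscle alpha-actinin, read 22375, 19342 and 23148 normalized counts in DU145-vector and 30910.2, 32445 and 30089 in DU145-TFEB, with 0.53 ± 0.08 (SE, limma adjusted p = 0.000215). FLNA, the widely expressed filamin, read 32612, 30841 and 34824 in DU145-vector and 42560.4, 50375 and 41772 in DU145-TFEB, with 0.45 ± 0.09 (SE, limma adjusted p = 0.000981). FLNC, the muscle filamin, was at 0.24 ± 0.08 (SE, limma adjusted p = 0.0203), and its test was lost without DU145-vector replicate 1 (limma adjusted p = 0.074). With the trend removed ACTN4 stood at -0.33 (limma adjusted p = 0.000292), FLNA at -0.28 (limma adjusted p = 0.00115) and FLNC at -0.56 (limma adjusted p = 1.20e-05). The median of all listed genes was then -0.30. Under quantile normalization FLNA also turned lower, to -0.20 (limma adjusted p = 0.0098). FLNC stood at -0.0998 there without passing the test (limma adjusted p = 0.191).

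The spectrin SPTBN4, best known from axon initial segments, had the highest log2 fold change of the 64 genes after MYO18B. It read 150.0, 152 and 149 normalized counts in DU145-vector and 378, 416 and 318 in DU145-TFEB. The DU145-vector values were nearly equal and every DU145-TFEB value lay far above them. Its log2 fold change of 1.29 ± 0.13 (SE, limma adjusted p = 1.74e-05) kept its sign after trend removal (0.39, limma adjusted p = 0.0102). SPTB, the erythroid beta-spectrin, ran the other way, from 453, 441 and 536 normalized counts in DU145-vector to 363, 341 and 381 in DU145-TFEB, with -0.39 ± 0.11 (SE, limma adjusted p = 0.00676) and -0.84 (limma adjusted p = 1.68e-05) after trend removal. Under quantile normalization SPTB stood at 0.057.

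Conventional myosins, the motors of contraction with their light chains, were higher in 6 of 10 cases, with a median of 0.30 (-0.44 after trend removal). The non-muscle heavy chains went apart. MYH9, the most abundant heavy chain, read 25970.2, 23238 and 26181 normalized counts in DU145-vector and 32296, 34668 and 32515 in DU145-TFEB, with 0.40 ± 0.07 (SE, limma adjusted p = 0.000596), and MYH14 was at 0.33. MYH10 fell from 5268, 5372 and 5268 to 2427, 2574 and 2706 normalized counts, with -1.05 ± 0.07 (SE, limma adjusted p = 3.25e-06). The sign of MYH10 did not depend on the trend (-0.94, limma adjusted p = 2.84e-07), whereas MYH9 turned to -0.22 (limma adjusted p = 0.00346) and MYH14 to -0.48. After removal the median of all listed genes was -0.30.

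MYH15 was rare, at 56.9, 53.6 and 41 normalized counts in DU145-vector and 13.7, 10.01 and 24.9 in DU145-TFEB. It fell past both thresholds on the authors' scaling (-1.66 ± 0.33, SE, limma adjusted p = 0.000991) and stood at -1.27 (limma adjusted p = 0.00351) after trend removal. Among the light chains MYL6 was the most abundant by count, with 17809, 17120.4 and 18441 in DU145-vector and 22070.4, 26001 and 21519.6 in DU145-TFEB, at 0.38 ± 0.08 (SE, limma adjusted p = 0.00184) and -0.068 (limma adjusted p = 0.273) after trend removal. Its exons overlap those of MYL6B on the same strand, so reads of the 2 genes may be mixed. MYL5 had the largest increase, from 150.0, 113 and 151 to 261, 198 and 211 normalized counts (0.69 ± 0.17, SE, limma adjusted p = 0.00292), and reversed after trend removal (-0.40, limma adjusted p = 0.0351). The neighbouring regulatory light chain genes MYL12A and MYL12B were both lower (-0.37 and -0.70) and remained so after trend removal (-0.23 and -1.11), while their relative MYL9 was at 0.27 and turned to -0.73.

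Unconventional myosins carry cargo or tether membranes to actin, and 8 of the 16 were higher and 8 lower. Class V motors, which carry organelles, melanosomes and recycling vesicles, were lower in all 3 cases by either route. MYO5A read 1456, 1604 and 1365 normalized counts in DU145-vector and 347, 255 and 439 in DU145-TFEB, with -2.12 ± 0.17 (SE, limma adjusted p = 6.55e-06) and -1.43 (limma adjusted p = 5.67e-07) after trend removal. MYO5B and MYO5C were at -1.10 and -1.24, and at -0.68 and -0.67 after trend removal. DU145-TFEB replicate 2 was the lowest library for all 3. MYO6, the motor that walks to the minus end of actin, was lower at -1.44 ± 0.22 (SE, limma adjusted p = 0.000181), and at -0.42 (limma adjusted p = 0.0212) after trend removal.

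Class I myosins are single-headed membrane tethers and moved in both directions. MYO1D (-0.43, and -0.70 after trend removal) and MYO1E (-0.58, and -0.33) were lower, and quantile normalization put MYO1D at 0.015. MYO1C, by far the most abundant unconventional myosin, ran the other way, from 13184, 12214 and 13685 to 19562, 22412 and 19123 normalized counts, with 0.64 ± 0.08 (SE, limma adjusted p = 6.27e-05), and reversed to -0.14 (limma adjusted p = 0.031) after trend removal. MYO1F, best known from blood cells, was higher at 1.13 ± 0.18 (SE, limma adjusted p = 0.000235) from 72.5, 52.7 and 72 normalized counts in DU145-vector to 157, 132 and 144 in DU145-TFEB, and stood at 0.40 (limma adjusted p = 0.0528) after trend removal.

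Class IX myosins split. MYO9A fell from 832, 957 and 833 normalized counts in DU145-vector to 255, 119 and 325 in DU145-TFEB. Replicate 2 lay well below the other DU145-TFEB libraries, and the log2 fold change was -2.02 ± 0.30 (SE, limma adjusted p = 0.000176), with -1.14 (limma adjusted p = 0.00015) after trend removal. MYO9B was higher at 0.46, and at -0.19 after trend removal. Both class XVIII myosins were higher by either route. MYO18A read 2355, 1994 and 2436 normalized counts in DU145-vector and 3208, 3198 and 3157 in DU145-TFEB, with 0.50 ± 0.08 (SE, limma adjusted p = 0.000387) and 0.25 (limma adjusted p = 0.00736) after trend removal. MYO18B, a gene of striated muscle, rested on 9, 4 and 6 reads in DU145-vector and 29, 23 and 29 in DU145-TFEB, a ratio of 4.31 (95% exact interval 2.59 to 7.52, counting error only). Its log2 fold change was 2.00 ± 0.34 (SE, limma adjusted p = 0.000422), and 1.51 (limma adjusted p = 0.00245) after trend removal. MYO19, the mitochondrial myosin, was at 0.28, and MYO15A and MYO15B at 0.64 and 0.83, none of them past the test after trend removal (0.096, 0.077 and -0.051).

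Location on the genome was uneven among these genes. All 9 on chromosome 15 were lower in DU145-TFEB, where 63.2% of the 364 listed genes of that chromosome were. After trend removal 52 of all 64 genes (81.2%) lay below 0, against 70.6% of all listed genes. Of the 9 on chromosome 15, 8 did, against 69.5% of the listed genes of that chromosome. The 9 include TMOD2 (chr15:51751561-51816368, GRCh38) and TMOD3 (chr15:51829628-51947295), which are 13259 bases apart on the plus strand. Also among the 9 are MYO5C (chr15:52192322-52295798) and MYO5A (chr15:52307283-52529050), which are 11484 bases apart on the minus strand. All 6 on chromosome 19 (TUBB4A, MYO1F, MYO9B, ACTN4, SPTBN4 and MYH14) were higher, where 22.6% of the 839 listed genes were lower. After trend removal 4 of these 6 lay below 0, as did 67.2% of the listed genes of chromosome 19. Chromosomes 15 and 19 differ in base composition, with a median GC content of the listed genes of 45.3% and 58.9%. The part of gene position in these values was not tested.

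The core promoters are shown because TFEB binds CACGTG and because serum response factor, which binds the CArG box, is known for driving actin genes. RefSeq promoters (GRCh38.p14, 250 bases before to 50 bases after the start) were matched for 56 of the 64 genes. The actin gene ACTB was not among the 56, so its promoter was not searched. The first promoter given for each symbol was used, and its start can lie inside the annotated gene, as for MYO19. CACGTG, which reads the same on both strands, stood in 6 of the 56 (10.7%), against 10.3% of the 7619 listed genes with a promoter and 7.43% of all 27305 promoters. The longer form TCACGTGA, which contains it, stood in 1 of the 56 (MYL5, 1.79%), against 2.07% of the listed genes and 1.04% of all promoters. Of the 6 genes with CACGTG 3 were higher, MYL5 and MYO19 among them, and 3 lower (MYO9A, DIAPH2 and MYL12A). Of the matches, 5 follow with 12 bases on either side, all upstream of the start, on the strand of the gene, with the match in capitals.
DIAPH2 (chrX:96684716-96684745, plus strand): actttgaagaatCACGTGtgttgaggccct
MYL12A (chr18:3247412-3247441, plus strand): gcgagggtcagtCACGTGggcccgcagccc
MYL5 (chr4:674421-674450, plus strand): cggcggtgacgtCACGTGaggcgcacgcgc
MYO19 (chr17:36534994-36535023, minus strand): tcccggccaagcCACGTGcgcgccccgcgc
MYO9A (chr15:72118198-72118227, minus strand): ctccagtggcgtCACGTGcgggggcgggac

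The CArG box, searched on both strands, stood in 3 of the 56 promoters, against 0.97% of listed genes and 1.29% of all promoters. The share of 5.36% rests on these 3 matches. Of these, 2 are shown, in FLNA, which was higher on the authors' scaling and lower after trend removal, and in MYO1E, which was lower by either route. They are printed with 12 bases on either side, in the same way. A match is a description of these letters, and binding was not measured here.
FLNA (chrX:154374707-154374740, minus strand): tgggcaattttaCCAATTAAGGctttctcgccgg
MYO1E (chr15:59372881-59372914, minus strand): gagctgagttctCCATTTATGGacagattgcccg

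Regulators and partners of the 2 filament systems were counted in 7 lists, and in each the highest and lowest were taken from genes averaging 100 or more normalized counts. Beside them, 47.6% of all listed genes were higher and 52.4% lower, and 15.6% and 53.4% after trend removal. The table held 21 of 33 genes of actin turnover (10 higher, 11 lower, median log2 fold change -0.23), with 3 higher and 15 lower after trend removal. Here GSN, the filament-severing protein gelsolin, was the highest, and CAPZA1, a capping protein subunit, the lowest. Below that mean lay SCIN, a relative of gelsolin, at 1.68 (2.64 after trend removal), and CORO2B, a coronin, at -2.26 (-3.01). GSN read 1319, 1140.1 and 1233 normalized counts in DU145-vector and 2316, 2292 and 2293 in DU145-TFEB, with 0.90 ± 0.08 (SE, limma adjusted p = 7.28e-06) and 1.05 (limma adjusted p = 4.70e-07) after trend removal. CAPZA1 read 3563, 4001 and 3308 in DU145-vector and 827, 723 and 1105 in DU145-TFEB, with -2.05 ± 0.14 (SE, limma adjusted p = 3.98e-06) and -1.56 (limma adjusted p = 1.06e-06). Both directions therefore did not depend on the trend. Of the nucleation regulators 23 of 36 were listed (7 higher, 16 lower, median -0.79, with 4 higher and 17 lower after trend removal), from SPIRE2, a nucleator, at 0.62 (-0.33 after trend removal) to WASHC4, a subunit of the endosomal WASH complex, at -1.93 ± 0.26 (SE, limma adjusted p = 9.39e-05), and -0.72 after trend removal.

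Membrane and adhesion linkers had 21 of 38 listed (5 higher, 16 lower, median -0.95), with 3 higher and 13 lower after trend removal. ADD3, an adducin that joins spectrin to actin, was the lowest, at 1418, 1386 and 1358 normalized counts in DU145-vector and 456, 257 and 481 in DU145-TFEB (-1.85 ± 0.20, SE, limma adjusted p = 2.86e-05, and -0.95 after trend removal). PDLIM3, which binds alpha-actinin, was the highest (0.70 ± 0.12, SE, limma adjusted p = 0.00041, and 1.66 after trend removal), and the ankyrin ANK1, below that mean, stood at 1.05. Of the filament binding proteins 18 of 26 were listed (5 higher, 13 lower, median -1.21), with 1 higher and 17 lower after trend removal. ANLN, the anillin of the contractile ring, fell from 6525, 6346 and 5779 to 1420.5, 1058 and 1857 normalized counts (-2.14 ± 0.17, SE, limma adjusted p = 5.77e-06, and -1.30, limma adjusted p = 2.85e-06 after trend removal), and TAGLN2 was the highest at 0.50, reversing to -0.37.

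On the microtubule side 29 of 36 genes of tubulin folding and modification were listed, in 30 entries because TBCE stands in the table under 2 gene identifiers, both lower. Of the 30 entries 14 were higher and 16 lower (median -0.47), with 5 higher and 18 lower after trend removal. AGTPBP1, an enzyme that trims glutamate chains from tubulin, was the lowest (-2.06 ± 0.19, SE, limma adjusted p = 1.14e-05), and VASH1, a tubulin detyrosinase, the highest (0.87, and 0.051 after trend removal), with TTLL1, below that mean, at 1.09. Microtubule dynamics had 25 of 35 listed (8 higher, 17 lower, median -0.71), with 2 higher and 14 lower after trend removal. EML2 rose from 673, 578 and 776 normalized counts in DU145-vector to 1640.4, 1467 and 1654 in DU145-TFEB (1.24 ± 0.11, SE, limma adjusted p = 1.06e-05, and 0.42, limma adjusted p = 0.00361 after trend removal), whereas the severing protein KATNAL1 was the lowest (-1.97 ± 0.21, SE, limma adjusted p = 2.17e-05). Cargo motors had 32 of 38 listed (12 higher, 20 lower, median -0.54, with 7 higher and 19 lower after trend removal), from the kinesin light chain KLC3 at 0.79 (-0.15 after trend removal) to the dynein intermediate chain DYNC1I2 at -1.79 ± 0.11 (SE, limma adjusted p = 2.61e-06). AGTPBP1, KATNAL1 and DYNC1I2 remained lower after trend removal (-1.30, -0.88 and -1.15). The medians of the 7 lists, from -1.21 to -0.23, compare with -0.36 for all listed genes and 0.25 for the 64 genes. After trend removal they ran from -0.71 to -0.30, beside -0.30 for all listed genes and -0.38 for the 64 genes.

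**Figure D5:**
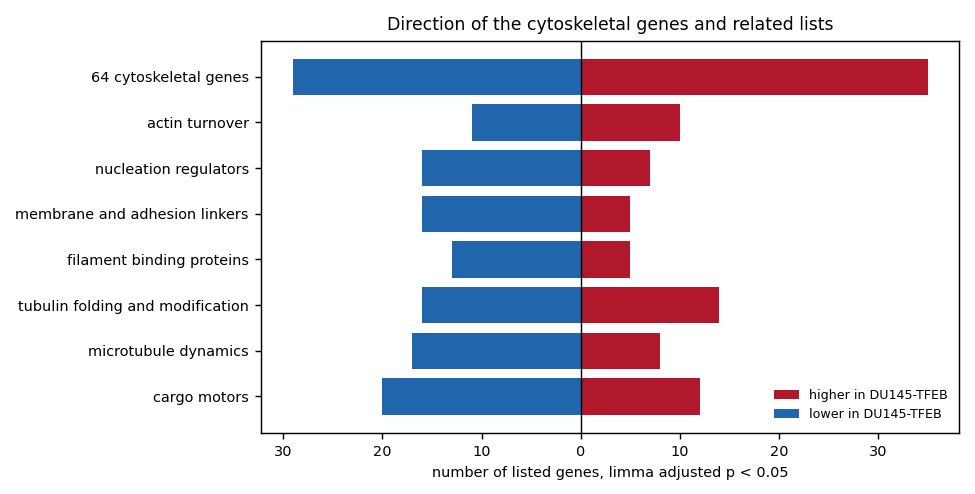
Bars give the number of listed genes that were higher (red, right) or lower (blue, left) in DU145-TFEB at a limma adjusted p below 0.05, for the 64 cytoskeletal genes and for the 7 lists of regulators and partners, on the authors' scaling. The 64 cytoskeletal genes have more red than blue (35 and 29), and every list has more blue than red, as do all listed genes (52.4% lower). Actin turnover (11 of 21) and tubulin folding and modification (16 of 30 entries) lie close to that share.

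Markers of cell identity were counted in the same comparison, beside all listed genes, of which 47.6% were higher and 52.4% lower, and 15.6% and 53.4% after trend removal. Every listed gene was selected by its adjusted p, so that a listed marker had to differ. Of 15 epithelial markers 10 were listed (3 higher, 7 lower, and 0 higher and 9 lower after trend removal), and their summed normalized counts were 51798, 46248 and 52357 in DU145-vector and 29024, 36739 and 28315 in DU145-TFEB. The most abundant of them was KRT8, a keratin of simple epithelia, a protein of intermediate filaments, with 27882, 24614 and 28109 normalized counts in DU145-vector and 15509.8, 20808 and 14615 in DU145-TFEB (-0.68 ± 0.13, SE, limma adjusted p = 0.000663, and -1.38, limma adjusted p = 1.93e-07 after trend removal). Its partner KRT18 was at -0.78 ± 0.13 (SE, limma adjusted p = 0.000328) and -1.57 (limma adjusted p = 9.76e-08). The other 5 epithelial markers (KRT7, KRT5, CDH1, EPCAM and CLDN7) were not among the listed genes. The groups did not overlap for either keratin, and both remained among the abundant transcripts of DU145-TFEB. Of 17 muscle markers 6 were listed (4 higher, 2 lower, and 1 higher and 2 lower after trend removal), with TNNT1 the most abundant and sums of 2669, 2497 and 2540 in DU145-vector and 3957, 4114 and 3616 in DU145-TFEB. TNNT1, a troponin, was higher at 0.65 and turned to -0.33 (limma adjusted p = 0.00054) after trend removal. Desmin (DES) read 18.6, 8.78 and 9 normalized counts in DU145-vector and 51.6, 34.6 and 46.7 in DU145-TFEB (1.85), and stood at 0.79 (limma adjusted p = 0.0527) after trend removal. Myoglobin (MB) was higher by either route (2.35, and 1.57). The giant filament proteins NEB (-2.36) and TTN (-1.81) were lower. TTN remained so after trend removal (-0.66), whereas NEB, listed at 0 in DU145-TFEB replicate 2, stood at -1.61 (limma adjusted p = 0.0538). None of the 10 fibroblast and 10 blood cell markers was among the listed genes, which in a table chosen by its adjusted p says nothing about their level. The part of these markers in the cytoskeletal values was not tested.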

How the data were processed

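PolyA RNA of 6 libraries, 3 of DU145-TFEB and 3 of DU145-vector, was analysed. The submitters' processing notes name CASAVA 1.8, HISAT2 2.1.0 and edgeR with the build GRCh38, and the study's methods name DESeq2 for the comparison; the counting program and whether strand was used are not given in the sources used here. The deposited signal values are reads per gene that the authors divided by 1 size factor per library, and the table also gives a gene length. Whole reads were recovered for 100% of the values (tolerance 0.1). All 10542 listed genes had a deposited adjusted p below 0.05. The authors' fold changes and p-values were not used otherwise.

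Log2(normalized count + 1) values were tested with limma 3.58.1 (mean-variance trend, R 4.3.3), two-sided, with Benjamini-Hochberg adjustment over all listed genes and no block. Both thresholds means an adjusted p below 0.05 and a change above 1.5 on the log2 scale, which understates changes of genes with few reads. An exact permutation test of 3 libraries against 3 cannot give a p below 0.1. As an alternative, a loess trend (span 0.5) of each library against the GC content of the longest GENCODE 29 transcript and log2 gene length was removed, keeping the library's mean. Gene positions equalled GENCODE 29 for all 10542 genes. Other alternatives were DESeq2 1.42.0 and edgeR 4.0.16 on the recovered reads, other scalings, pseudocounts, filters and cutoffs, the replicate block, and leaving out each library. On simulated counts (10542 genes, 200 changed by 2 on the log2 scale) limma recovered all 200 with 0 unchanged genes called. With a GC trend added it recovered 121 and called 783 unchanged genes, and after removal of that trend 200 and 0 (10537 genes). The added trend was linear in GC content alone, and the changed genes were drawn without regard to GC content. The simulation therefore cannot show what the removal does to changes that themselves follow GC content.

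The 64 genes, the role groups and the lists were chosen with earlier results of these data known. Genes named were the 2 most abundant and the highest and lowest in each role group, every gene past both thresholds, and the highest and lowest of each list with a mean of at least 100 normalized counts; all other genes were named after their values were seen. Exons of 42 of the 64 genes overlap another gene, 39 of them on the opposite strand, and reads of such pairs cannot be told apart without strand. Some genes, sequences and gene lists are not reported here. Intervals cover counting error only.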

Additional observations from a re-analysis of the deposited data

How the results depend on the processing

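The 8 genes lower past both thresholds numbered 7 to 9 and the 1 higher gene stayed at 1 when single libraries were left out. MYH15 was lost without DU145-TFEB replicate 2, which also gave the lowest median of the 64 genes, with a range of 0.15 to 0.28. TMOD2, MAP1B and MYO18B passed both thresholds under every scaling tried, and the filter of 10 reads removed MYO18B. TUBB (limma adjusted p = 0.066 with the replicate block) and other genes near 0 limit what these 3 libraries a group can show. Shares of higher against lower genes depend on the scaling, which moved the median of all listed genes from -0.36 to -0.40 (library size), -0.28 (edgeR's TMM), -0.12 (DESeq2's size factors) and -0.031 (quantile normalization), while the median of the 64 genes lay between 0.60 and 0.61 above it for all of these except quantile normalization (0.039). The cause of the trend with GC content was not tested.

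With the trend against GC content and length removed, the medians were -0.53 for tubulins, -1.58 for MAP1B, -0.27 for actin, Arp2/3 and actin-related proteins, -0.27 for formins, -0.52 for tropomyosins and tropomodulins, -0.33 for crosslinkers, -0.44 for conventional myosins, -0.26 for unconventional myosins and -0.38 for all 64 genes. Listed genes past both thresholds numbered 142 higher and 478 lower, 3 of the 64 were lower past both, and 5 were higher and 45 lower by adjusted p. Of the 64 genes 33 changed sign, as did 3545 of the 10537 listed genes with a GC value. The median of all listed genes was then -0.30. Among the genes named by rule in the 64 and the lists, these log2 fold changes reversed: ACTB -0.34, ACTN4 -0.33, FLNA -0.28, FLNC -0.56, MYH9 -0.22, MYL5 -0.40, MYL6 -0.068, MYO1C -0.14, TPM1 0.13, TPM2 -0.025, TUBB -0.39, TUBB4A -0.19, TUBB4B -0.71, KLC3 -0.15, SPIRE2 -0.33 and TAGLN2 -0.37.

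The replicate numbers did not pair the samples: deviations of same-numbered libraries from their group means correlated at -0.018, -0.25 and -0.14, and no library correlated best with its own number. With the replicate block, 8 of the 64 genes were lower and 1 higher past both thresholds, and 33 higher and 29 lower by adjusted p, against 35 and 29 without it. With the block and the trend removed together, 141 listed genes were higher and 475 lower past both thresholds, 3 of the 64 lower past both, and 4 higher and 44 lower by adjusted p. The fold changes and medians are those without the block, for example -0.34 for ACTB, -0.38 for all 64 genes and -0.53 for tubulins.

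DESeq2's size factors gave 466 listed genes higher and 1104 lower past both thresholds, and 2 of the 64 higher (SPTBN4 and MYO18B), with medians of 0.49 for the 64 genes, 0.51 for tubulins, 0.23 for actin, Arp2/3 and actin-related proteins, -0.98 for formins, -0.97 for tropomyosins and tropomodulins, 0.69 for crosslinkers, 0.54 for conventional and 0.17 for unconventional myosins. DESeq2 on the recovered reads gave 484 and 1078 listed genes, 2 of the 64 higher, and medians of 0.50, 0.51, 0.23, -0.98, -0.97, 0.70, 0.54 and 0.17 in the same order. edgeR on the recovered reads called 329 listed genes higher and 1528 lower, with medians of 0.33 for the 64 genes, 0.067 for the actin group and 0.0060 for unconventional myosins, and edgeR's TMM factors gave 0.33, 0.065 and 0.0056. Scaling by library size moved the actin group to -0.063.

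Quantile normalization gave 563 listed genes higher and 808 lower past both thresholds, and 2 and 5 of the 64. Its medians were 0.0083 for the 64 genes, 0.021 for conventional myosins, -0.0998 for crosslinkers, -0.84 for formins and 0.16 for unconventional myosins, and it reversed ACTB (-0.25), FLNA (-0.20), FLNC (-0.0998), SPTB (0.057), TUBB (-0.36), TUBB4B (-0.031), MYO1D (0.015) and ACTR8 (0.032). A filter of 10 reads in every library left 89 listed genes higher and 0 of the 64, and moved unconventional myosins to -0.43. A pseudocount of 5 left 114 listed genes higher. A cutoff of 1 on the log2 scale gave 887 listed genes higher and 3274 lower (3 and 16 of the 64), and one of log2(1.5) gave 2645 and 4627 (13 and 20 of the 64).

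Leaving out single libraries gave medians from 0.15 to 0.34 for tubulins, -2.34 to -1.94 for MAP1B, -0.043 to 0.0094 for the actin group, -1.27 to -1.15 for formins, -1.24 to -1.15 for tropomyosins and tropomodulins, 0.37 to 0.50 for crosslinkers, 0.22 to 0.35 for conventional and -0.094 to -0.056 for unconventional myosins. Listed genes past both thresholds then numbered 243 to 295 higher and 1289 to 2048 lower.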

Other observations

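One listed gene matched the symbol rule without being protein-coding, the transcribed pseudogene TUBBP5. It read 278.4, 256.5 and 279 normalized counts in DU145-vector and 360.9, 344.9 and 330.2 in DU145-TFEB. The groups did not overlap, and the log2 fold change of 0.35 ± 0.10 (SE, limma adjusted p = 0.00921) turned to -0.43 with the trend against GC content removed (limma adjusted p = 0.00306). Reads of beta-tubulin genes may be split with such copies.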
